A study of Homo sapiens with 24 samples.

Results

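The genes of oxidative phosphorylation followed here are those whose symbols begin with NDUF, UQCR, ATP5, COX and a digit, or SDHA to SDHD, the last reading taking in the SDHAF assembly factors. Of 103 such coding genes on the array, 99 were detected, meaning that their signal stood above the array's negative controls (detection p under 0.05) on at least 2 arrays. They are 99 of the 14807 named genes that passed the same filter. The other 4 were COX4I2, COX6A2 and COX8C, detected on 0 arrays, and NDUFS6, detected on 1. All 4 stay out of every count below, as do 7 pseudogene or antisense symbols that carry the same prefixes.

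The samples were 4 established cell lines of triple-negative breast cancer, a form without hormone receptors or amplified HER2. BT549, HCC38, MDA-MB-157 and MDA-MB-231 were grown as ATCC specifies and harvested at 0, 24 and 72 h of exposure to 2 µM cisplatin, a platinum compound that crosslinks DNA. Each of the 12 line-by-time groups had 2 replicates that the design text calls independent, which gave 24 arrays on 2 slides, with 1 array of every group on each slide. Untreated cultures held for 24 or 72 h were not analysed here, so the drug and time in culture changed together. A lower signal from fewer cells expressing a gene and one from less RNA per cell cannot be told apart in such bulk samples.

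Oxidative phosphorylation takes place in the inner mitochondrial membrane. Complex I oxidises NADH and complex II oxidises succinate. Complex III passes the electrons to cytochrome c, and complex IV hands them to oxygen. Complexes I, III and IV pump protons, and ATP synthase uses the resulting gradient to make ATP. Most subunits are encoded in the nucleus and a few core subunits in mitochondrial DNA. Assembly factors build the complexes without remaining in them. Cancer lines are known to differ in how far they rely on this pathway. All 99 genes measured here are nuclear.

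Between 38.7% and 46.4% of the 47322 probes were detected per array. Correlations of replicates across genes were 0.977 to 0.991. The MDA-MB-231 replicates at 0 h were the least alike: 765 genes, 3 of them among the 99, differed more than 2-fold between them. Having 2 arrays per group limits the precision. The oestrogen receptor gene ESR1 and the leukocyte genes PTPRC and CD3E were detected on 0 arrays and PGR on 2. The endothelial gene PECAM1 was detected on 6 arrays, 3 each of MDA-MB-157 and MDA-MB-231, and the adipocyte gene ADIPOQ on 3. ERBB2 (HER2) and the mesenchymal gene VIM were detected on all 24. The epithelial genes were detected on 23 arrays for KRT8, 22 for EPCAM, 21 for CDH1 and 20 for KRT18. BT549 detected KRT18 on 2 of its 6 arrays, and the other lines on all 6.

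The first question was how far the lines differed in these genes before the drug. Signals are given on a log2 scale after background correction and quantile normalization, so a difference of 1 is a doubling. Calls required a limma p under 0.05 after Benjamini-Hochberg adjustment over all 14807 genes. The F test of the 4 lines at 0 h called 72 of the 99 genes (72.7%), beside 66.8% of all genes tested. The median range between the highest and the lowest line mean was 0.83 for the 99 and 1.00 for all genes. A range above 1 was found for 41 of the 99 (41.4%), beside 49.8% of all genes. The share called was thus near that of the array as a whole. Of those 41 genes, 37 had the same highest line and 32 the same lowest line at 0, 24 and 72 h.

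**Figure D1:**
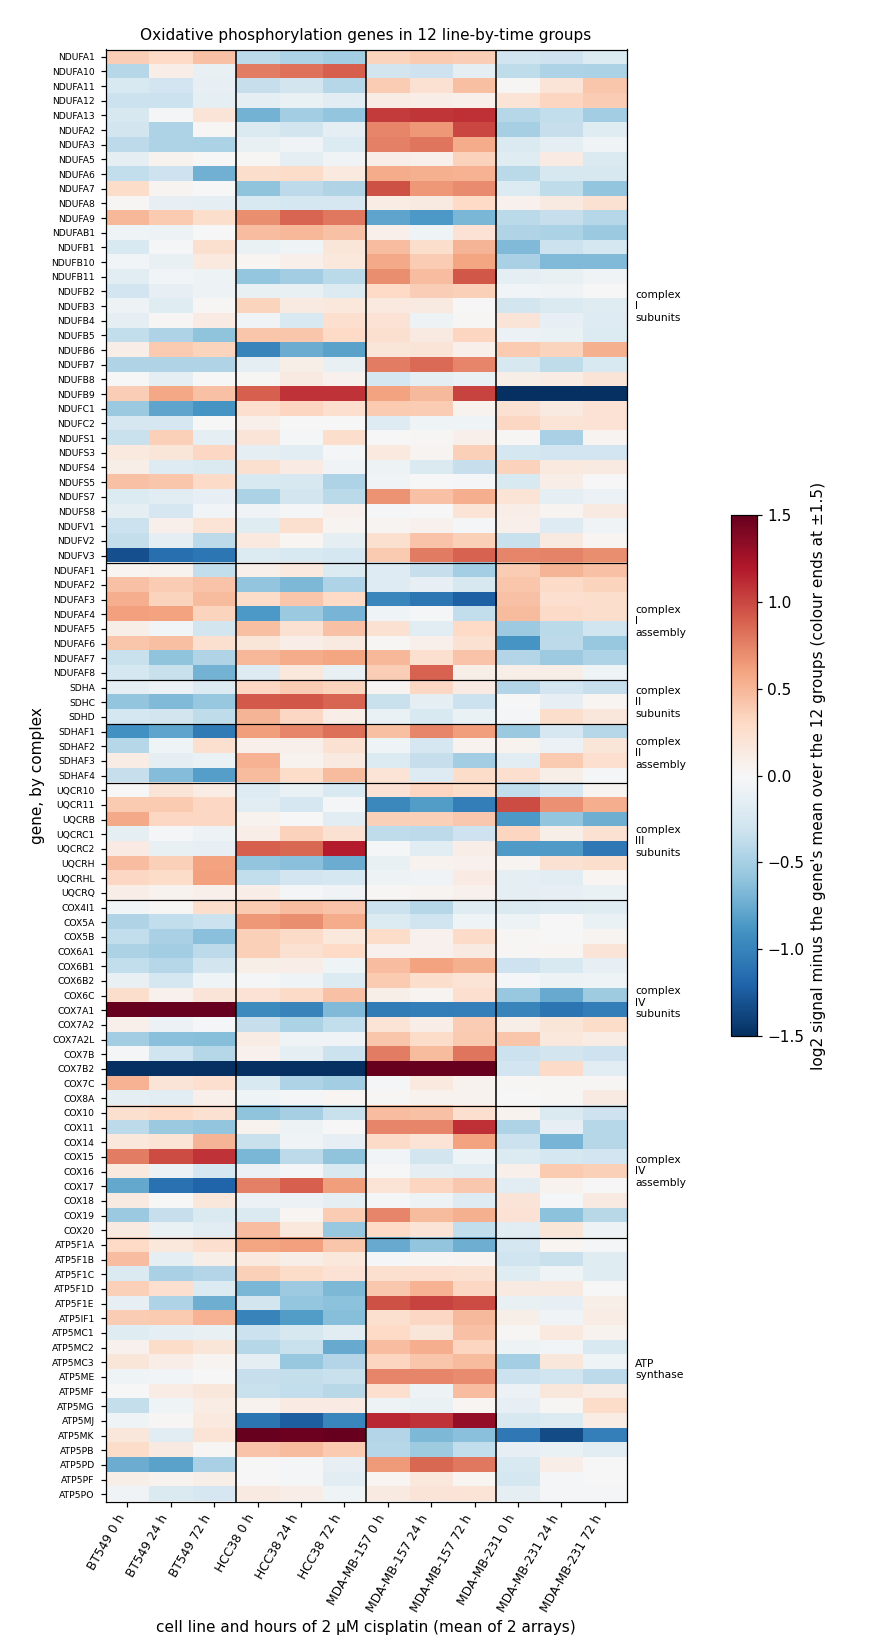
Log2 signal of each of the 99 genes in the 12 line-by-time groups (mean of 2 arrays), minus the gene's mean over the groups. Genes run down the page by complex and groups run across it, with time rising within each line. Colours end at 1.5 on either side. The blocks of colour follow the lines, as for COX7B2, COX7A1 and NDUFB9, and differ less between the 3 times of a line.

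The widest differences lay in complex IV, in a pair of alternative subunits whose usual sites are other tissues. COX7B2 is a paralogue of COX7B known from testis. At 0 h its log2 signals were 10.11 and 10.44 in MDA-MB-157 and 6.34 and 5.72 in MDA-MB-231. They were 4.34 and 4.40 in BT549 and 4.28 and 4.51 in HCC38, where no array detected the gene. COX7B2 was thus detected on all 12 arrays of MDA-MB-157 and MDA-MB-231 and on none of the other 12. Where the dimmer line was not well above background, the fold is given against the lowest signal that counted as detected on those arrays. On that footing MDA-MB-157 was at least 40.8-fold above BT549 and at least 42.5-fold above HCC38. MDA-MB-231 was at least 2.15-fold above BT549 and at least 2.24-fold above HCC38. After 72 h of cisplatin MDA-MB-157 had 10.28 and 10.52, at least 42.1-fold above BT549 and 45.2-fold above HCC38 at that time.

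COX7A1 is the subunit VIIa form of heart and skeletal muscle. At 0 h it gave 8.28 and 7.97 in BT549, against 4.33 to 4.48 over the 6 arrays of the other lines. BT549 detected it on 6 of 6 arrays and each of the other lines on 0 of 6. BT549 was at least 9.58-fold above HCC38, at least 8.84-fold above MDA-MB-157 and at least 8.68-fold above MDA-MB-231. The F test called both genes (adjusted p = 1.1e-13 for COX7B2 and 3.3e-13 for COX7A1). Each passed the detection filter only through the lines where it was bright, so these p-values add nothing to the detection counts. The more widely used partners were present in every line. COX7B had 12.46 and 12.67 in MDA-MB-157, against 11.47 to 11.99 over the 6 arrays of the other lines. COX7A2 had line means between 12.87 in HCC38 and 13.42 in MDA-MB-157. With median scaling in place of quantile normalization, and in the log2 table that the authors deposited, BT549 was its highest line.

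The other complex IV subunits differed less. COX5A, a subunit of the matrix side, had a mean of 13.16 in HCC38 and of 12.06 to 12.43 in the other lines (adjusted p = 2.6e-05). COX4I1, the common form of the largest nuclear subunit, had its highest mean of 13.33 in HCC38 and its lowest of 12.61 in MDA-MB-157 (adjusted p = 0.0023). Under median scaling its highest line was BT549. Its lowest was MDA-MB-231 under that scaling and in the authors' log2 table. COX6A1 was highest in HCC38 at 11.65 and COX6B1 highest in MDA-MB-157 at 13.22. COX8A spanned only 0.15 between lines (adjusted p = 0.823). COX6B2, a sperm form, was detected on 3 arrays, all of MDA-MB-157. COX7A2L, which helps complexes III and IV associate, had a mean of 10.44 in BT549 and of 11.08 to 11.38 in the other lines. Its range of 0.94 between lines fell to 0.16 when median scaling replaced quantile normalization, with MDA-MB-231 then lowest. In the log2 table that the authors deposited its range was 0.36. In all, 12 of 14 complex IV subunits (85.7%) and 6 of 9 complex IV assembly genes (66.7%) were called between lines, beside 66.8% of all genes tested. The 12 include COX7A1 and COX7B2, which passed the detection filter only through their bright lines. COX17, a copper chaperone for this complex, had 12.15 ± 0.06 in HCC38 and 10.63 ± 0.04 in BT549 (SD, n = 2 each). HCC38 stayed its highest line under median scaling and in the authors' table, where MDA-MB-231 was lowest. COX15, which acts in haem a synthesis, had 7.96 ± 0.13 in BT549 and 6.50 ± 0.12 in HCC38 (SD, n = 2 each), and its other probe, detected on 19 arrays, ranged over 0.69 between lines in place of 1.46.

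**Figure D2:**
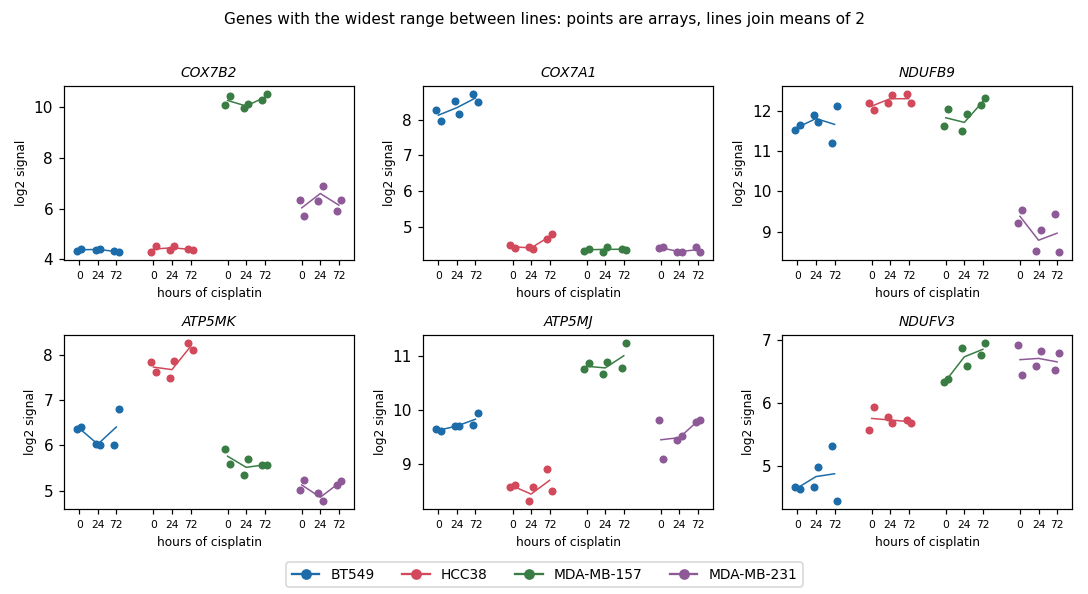
Log2 signal of the 6 genes with the widest range between lines at 0 h. Each point is 1 array, and lines join the means of 2 arrays at 0, 24 and 72 h of cisplatin. COX7B2 is bright in MDA-MB-157, COX7A1 in BT549 and ATP5MK in HCC38, while NDUFB9 is dim in MDA-MB-231 at all 3 times. Each vertical axis has its own span.

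Among complex I subunits 24 of 35 (68.6%) were called between lines, near the 66.8% of all genes tested. NDUFB9, an accessory subunit of the membrane arm, spanned 2.75. Its log2 signals at 0 h were 9.22 and 9.54 in MDA-MB-231. They were 11.54 and 11.65 in BT549, 12.21 and 12.04 in HCC38, and 11.62 and 12.05 in MDA-MB-157. MDA-MB-231 therefore lay below every array of the other lines, and also at 24 h (8.52 and 9.05) and 72 h (9.43 and 8.49). Against the mean of the other 3 lines at 0 h it was lower by 2.48 (log2 difference -2.48, SE 0.24, adjusted p = 1.3e-07).

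NDUFA13, an accessory subunit also known as GRIM-19, had 11.21 and 11.29 in MDA-MB-157, against 9.21 to 10.03 over the other 6 arrays at 0 h. NDUFA7, another accessory subunit, had 10.11 ± 0.30 in MDA-MB-157 and 8.54 ± 0.27 in HCC38 (SD, n = 2 each). Under quantile normalization both were thus brightest in MDA-MB-157 and dimmest in HCC38. Under median scaling NDUFA7 was brightest in BT549, and both genes were dimmest in MDA-MB-231. NDUFV3, an accessory subunit of the NADH-oxidising module, was not well above background in BT549 at 0 h. MDA-MB-231, with 6.93 and 6.45, stood at least 3.41-fold above it. A further detected NDUFV3 probe ranged over 0.41 between lines in place of 2.05, so this difference rests on 1 probe. The core subunits NDUFS1, NDUFS3, NDUFS8 and NDUFV1 were among the 27 genes not called between lines, with ranges of 0.22 to 0.53. Among complex I assembly genes 6 of 8 were called. NDUFAF3 and NDUFAF4 work together early in assembly. NDUFAF3 had 10.63 ± 0.28 in MDA-MB-157 and 12.15 ± 0.30 in BT549, and NDUFAF4 had 7.60 ± 0.08 in HCC38 and 9.08 ± 0.40 in BT549 (SD, n = 2 each).

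Complex II showed 1 common direction: all 7 of its measured genes had their highest 0 h mean in HCC38. SDHC, a membrane anchor, had 10.50 and 11.32 in HCC38, against 10.50 and 9.49 in MDA-MB-231, 9.57 and 9.75 in MDA-MB-157, and 9.40 on both BT549 arrays. HCC38 and MDA-MB-231 thus touched at 1 array each. SDHD, the other anchor, had 10.98 ± 0.26 in HCC38 and means of 10.20 to 10.43 elsewhere (SD, n = 2). SDHA, which carries the flavin, had 10.76 ± 0.09 in HCC38 and 10.01 to 10.50 elsewhere, and has near-identical pseudogene copies that its probe may also read. Against the other 3 lines the differences were 1.23 for SDHC, 0.65 for SDHD and 0.49 for SDHA, and all 3 were called (adjusted p = 5.3e-04, 0.0027 and 0.018). Among the assembly genes SDHAF1, needed for the iron-sulfur clusters, had 8.73 ± 0.11 in HCC38 and 7.19 ± 0.15 in BT549 (SD, n = 2 each), and one of its other probes ranged over 0.58 between lines in place of 1.55. SDHAF1 and SDHAF3 were called higher in HCC38, and SDHAF2 and SDHAF4 were not. Of all genes tested, 22.0% were called higher in that line. HCC38 was the highest line for at least 5 of the 7 genes under each of 4 ways of scaling the arrays. The complex II subunits then lay 0.63 to 0.74 above the median of all genes in that line.

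Complex III had 6 of 8 subunits called. UQCRC2, a core subunit, had 10.86 and 10.61 in HCC38, and 8.89 and 9.12 in MDA-MB-231, the lowest line (adjusted p = 8.3e-06). UQCR11, a small accessory subunit, was highest in MDA-MB-231 at 7.25 and 6.65 and lowest in MDA-MB-157 at 5.25 and 4.74, where only 1 of the 2 arrays detected it. Under median scaling BT549 was its highest line. UQCRH and its near-identical copy UQCRHL may share signal, and both were called higher in BT549 and lower in HCC38.

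ATP synthase had 13 of 18 genes (72.2%) called, near the 66.8% of all genes tested. ATP5MK and ATP5MJ are small proteins of its membrane part. ATP5MK had 7.84 and 7.61 in HCC38, against 6.35 and 6.40 in BT549, 5.93 and 5.59 in MDA-MB-157, and 5.02 and 5.23 in MDA-MB-231. ATP5MJ had 10.76 and 10.87 in MDA-MB-157, 9.65 and 9.61 in BT549, 9.82 and 9.09 in MDA-MB-231, and 8.58 and 8.62 in HCC38. HCC38 was thus the brightest line for one gene and the dimmest for the other. ATP5F1A of the catalytic head and ATP5F1E of the stalk also had no common order. ATP5F1A had 12.12 ± 0.02 in MDA-MB-157 and 13.47 ± 0.02 in HCC38 (SD, n = 2 each). BT549 was its highest line under median scaling and in the authors' table, with MDA-MB-157 still lowest. ATP5F1E had 12.32 ± 0.04 in MDA-MB-157, against means of 11.09 to 11.25 elsewhere (SD, n = 2). ATP5IF1, the inhibitor that blocks the enzyme from running backwards, had 9.42 in HCC38 and 10.51 to 10.81 in the other lines (adjusted p = 3.2e-05). The 3 genes for the same subunit c spanned 0.89 (ATP5MC2), 0.82 (ATP5MC3) and 0.62 (ATP5MC1) between lines (adjusted p = 0.013, 0.042 and 0.061). The other detected ATP5MC1 probe spanned 1.71 and correlated with the first at only 0.16 over the arrays, so the probes of this gene disagree.

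To see whether a line stood apart across the pathway, each line at 0 h was compared with the mean of the other 3, a comparison added after the line values had been seen. In MDA-MB-157, 45 of the 99 were called, beside 43.2% of all genes tested, and they split into 36 higher and 9 lower. Over all 14807 genes that split was 3109 higher and 3290 lower. In MDA-MB-231, 34 were called, beside 37.1%, with 8 higher and 26 lower, where all genes had 2604 higher and 2890 lower. In BT549, 39 were called, beside 41.1%, with 18 higher and 21 lower. In HCC38, 46 were called, beside 43.5%, with 22 higher and 24 lower. The number called was thus near that of all genes in each line, and the split between directions was uneven in MDA-MB-157 and MDA-MB-231. The lower counts include genes at background. COX7A1 was called lower in HCC38, MDA-MB-157 and MDA-MB-231, and COX7B2 in BT549 and HCC38, lines where no array detected them. In MDA-MB-157, 16 of 35 complex I subunits and 8 of 18 ATP synthase genes were called higher, with 1 and 3 lower. In MDA-MB-231, 10 complex I subunits were called lower and 2 higher, and ATP synthase had 4 lower and 0 higher.

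The 16 complex I subunits called higher in MDA-MB-157 came from several parts of the enzyme. They included the core subunit NDUFS7, which carries an iron-sulfur cluster (log2 difference 0.83), and NDUFV2 of the NADH-oxidising module (0.42). Among accessory subunits they included NDUFA2 (1.06), NDUFB7 (1.04), NDUFB11 (0.99), NDUFB1 (0.80) and NDUFB10 (0.74). The exception was NDUFA9, an accessory subunit beside the ubiquinone site, which was lower at -1.06. In MDA-MB-231 several of the same genes were called lower: NDUFB1 (-0.70), NDUFB10 (-0.68), NDUFA2 (-0.58), NDUFA6 (-0.56) and NDUFA13 (-0.46). Both lines enter each other's comparison, so these are not separate observations. NDUFAB1, the mitochondrial acyl carrier protein, was also lower in MDA-MB-231 at -0.60, and NDUFB6 was higher at 0.63.

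HCC38 was split within complex I. NDUFB9 (1.19), NDUFA10 (1.13) and NDUFA9 (0.93) were called higher, and NDUFB6 (-1.22), NDUFA7 (-0.95) and NDUFA13 (-0.84) lower. BT549 had 8 complex I subunits lower, led by NDUFV3 (-1.62) and NDUFC1 (-0.84), and 3 higher, which were NDUFA9 (0.66), NDUFS5 (0.61) and NDUFA1 (0.49). NDUFV3 was detected on only 1 of 6 BT549 arrays and its other probe ranged over 0.41 between lines, so the size of its difference is not well measured. Relative to the median of all genes, the complex I subunits in BT549 lay at -0.22 and -0.14 under quantile normalization, at 0.10 under median scaling and at 0.30 in the authors' table, so their direction turned with the scaling. Among complex I assembly genes in BT549, NDUFAF4 (0.77), NDUFAF6 (0.64), NDUFAF3 (0.63) and NDUFAF2 (0.56) were higher, and these 4 were called higher under all 4 scalings. NDUFAF7 was lower at -0.53, and at 0.22 under median scaling it changed sign and was not called (adjusted p = 0.669). In ATP synthase, HCC38 was higher in ATP5F1A (0.84), ATP5PB (0.52) and ATP5F1C (0.40) and lower in ATP5F1D (-0.98) and ATP5F1E (-0.51). MDA-MB-157 was higher in ATP5PD (0.97) and ATP5ME (0.96) and lower in ATP5PB (-0.62). For complex IV assembly, MDA-MB-157 was higher in COX19 (0.92) and COX10 (0.56), and HCC38 was lower in COX15 (-0.86) and COX10 (-0.85). COX10 and COX15 act one after the other in making haem a.

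How the arrays were scaled decided part of this. With median scaling in place of quantile normalization, BT549 had 37 genes higher and 2 lower, and MDA-MB-157 had 6 higher and 10 lower. The median of all genes itself moved to 0.38 in BT549 and -0.24 in MDA-MB-157 under that scaling, so the 99 genes were also read against all genes. Relative to that median, the 99 genes lay lower in MDA-MB-231 under all 4 scalings, by -0.16, -0.17, -0.32 and -0.41. They lay above it in MDA-MB-157 under all 4, by 0.26, 0.19, 0.14 and 0.02. BT549 changed side, at -0.11, -0.08, 0.19 and 0.34, and HCC38 stayed between 0.02 and 0.05. Complex I subunits were above the median of all genes in MDA-MB-157 for 23 to 29 of 35 genes and in MDA-MB-231 for 7 to 15 of 35. In BT549 they changed side, with 9 and 9 of 35 above it under quantile normalization, 21 under median scaling and 28 in the authors' table. Complex III subunits were above it in BT549 for 7 or 8 of 8 genes.

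**Figure D3:**
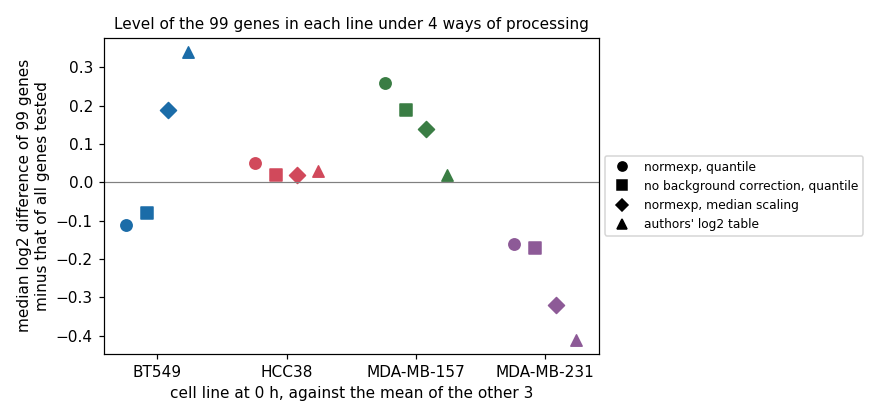
Median log2 difference of the 99 genes between each line at 0 h and the mean of the other 3, minus the same median over all genes tested, under 4 ways of processing the arrays. The horizontal axis gives the line and the marker shape the processing. MDA-MB-231 lies below 0 under all 4. MDA-MB-157 and HCC38 lie above 0 under all 4, HCC38 at 0.02 to 0.05 and MDA-MB-157 at only 0.02 in the authors' table. BT549 lies on both sides.

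Genome position was not part of the choice of genes, and 4 of the 99 lie on chromosome 8: NDUFB9, UQCRB, COX6C and NDUFAF6. They were singled out after their values had been seen, among 13 chromosomes that held 4 or more of the 99 genes. They belong to complexes I, III and IV, and all 4 had their lowest 0 h mean in MDA-MB-231. UQCRB, which helps bind ubiquinone in complex III, had 10.35 ± 0.33 in MDA-MB-231 and means of 11.26 to 11.77 in the other lines. COX6C, a complex IV subunit, had 12.73 ± 0.05 in MDA-MB-231 and 13.38 to 13.56 elsewhere. NDUFAF6, a complex I assembly factor, had 7.90 ± 0.31 in MDA-MB-231 and 8.80 to 9.20 elsewhere (SD, n = 2).

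Against the other 3 lines the differences were -2.48 for NDUFB9, -1.18 for UQCRB, -1.08 for NDUFAF6 and -0.75 for COX6C. All 4 were called lower under each of the 4 scalings. Of all 547 genes tested on chromosome 8, 38.0% were called lower in MDA-MB-231, beside 19.5% of all genes tested, and their median difference was -0.28. On chromosome 19, which held 12 of the 99 genes, 10 were called higher in MDA-MB-157, beside 31.2% of the 1038 genes tested there. That count was 1 under median scaling and 6 in the authors' table.

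The second question was how these genes changed over the hours of cisplatin, where drug and time in culture cannot be told apart. Averaged over the 4 lines, 0 of the 99 were called at 24 h, beside 0.0135% of all genes tested. At an unadjusted p under 0.05 there were 3 (3.03%), beside 8.75%. At 72 h, 1 gene was called, beside 1.21%, and 8 (8.08%) had an unadjusted p under 0.05, beside 15.5%. Every one of the 99 average changes was smaller than 0.5 at both times. The median size of the change was 0.06 at 24 h and 0.08 at 72 h, beside 0.11 at 72 h for all genes. The 95% confidence interval of an average change reached a median of 0.20 to either side. For all 99 genes at 24 h and for 95 of them at 72 h it lay wholly within 0.5 of no change.

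**Figure D4:**
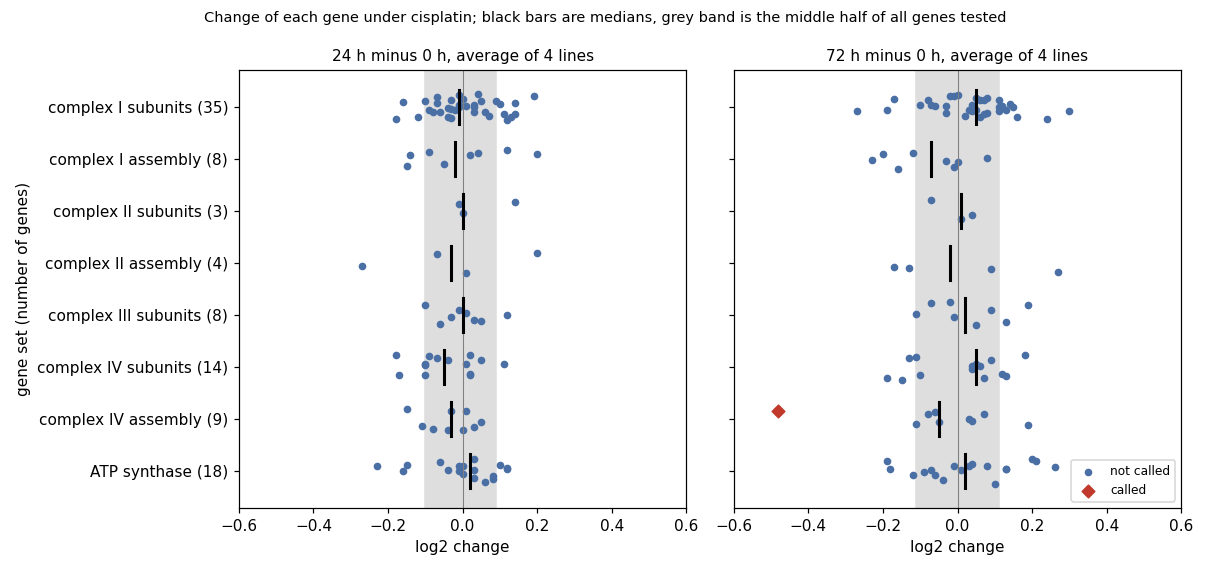
Log2 change of each of the 99 genes, averaged over the 4 lines, at 24 h minus 0 h (left) and 72 h minus 0 h (right), by gene set. Points are genes, black bars are set medians and the grey band is the interquartile range of all genes tested. The set medians lie between -0.07 and 0.05 at 72 h, and COX20 at -0.48 is the only called gene.

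The called gene was COX20, an assembly factor that holds the mitochondrially encoded COX2 subunit while its copper site is filled. In HCC38 its log2 signals were 8.02 and 8.38 at 0 h, 7.84 and 7.94 at 24 h, and 7.39 and 6.94 at 72 h. In MDA-MB-157 they were 8.07 and 7.99 at 0 h, 7.96 and 7.93 at 24 h, and 7.26 and 7.48 at 72 h. In both lines the 72 h arrays lay below every earlier array. In BT549 they were 7.88 and 7.86 at 0 h, 7.66 and 7.59 at 24 h, and 7.53 and 7.60 at 72 h. In MDA-MB-231 they were 7.62 and 7.54 at 0 h, 7.82 and 8.01 at 24 h, and 7.46 and 7.86 at 72 h, so times overlapped in that line. At 0 h MDA-MB-231 was already the lowest line for COX20, at -0.46 against the other 3.

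Averaged over lines COX20 fell by 0.48 at 72 h, or 1.39-fold (SE 0.09, 95% interval -0.67 to -0.29, limma adjusted p = 0.017). The change was -0.30 in BT549, -1.04 in HCC38, -0.66 in MDA-MB-157 and 0.08 in MDA-MB-231, and within single lines it was called only in HCC38 (adjusted p = 0.044). That call was lost with slide as a block (adjusted p = 0.053), under median scaling (0.195) and on leaving out any 1 of 17 of the 24 arrays. Whether the 4 changes differed did not pass the F test (adjusted p = 0.263). The average was no longer called without HCC38 (adjusted p = 0.221), without MDA-MB-157 (0.124), without BT549 (0.085) or without HCC38 72 h replicate 2 (0.057). Nor was it called under median scaling, at a change of -0.61 (adjusted p = 0.365), where 0 of all genes were called. In the authors' table it was called, at -0.37 (adjusted p = 0.021). The direction was the same under all of these.

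Of the genes next in order of p, none passed the adjusted threshold. NDUFS4, an accessory subunit near the NADH-oxidising end of complex I, had an average change of -0.27 (SE 0.08, adjusted p = 0.106). It was called with no background correction (adjusted p = 0.026) and with a normexp offset of 50 (adjusted p = 0.037). In BT549 it had 11.16 and 11.07 at 72 h, against 11.38 and 11.45 at 0 h. In MDA-MB-157 it had 11.03 and 10.94 at 72 h, against 11.20 and 11.29 at 0 h. In all 4 lines both 72 h arrays lay below both 0 h arrays. ATP5MG, subunit g of ATP synthase, had 0.26 (SE 0.10, adjusted p = 0.178), and its other probe gave 0.08. UQCRHL had 0.19 (adjusted p = 0.242). COX7A1 had 0.18 (adjusted p = 0.278), an average that includes 3 lines where it was not detected. At 24 h the smallest p belonged to SDHAF4, a complex II assembly factor, at -0.27 (adjusted p = 0.504). NDUFS4 came next at -0.18 (adjusted p = 0.524).

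**Figure D5:**
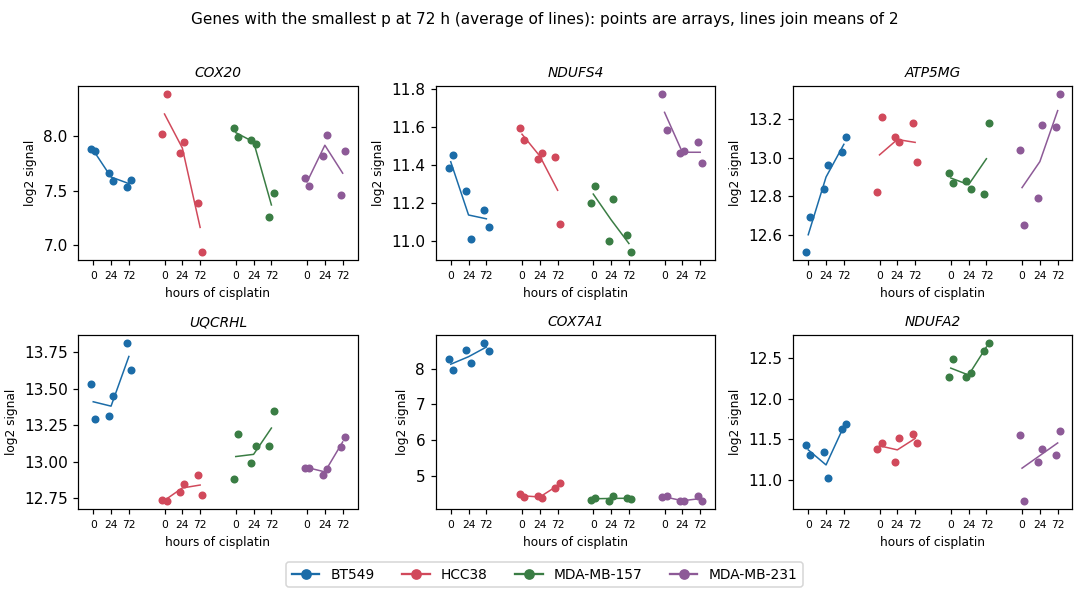
Log2 signal of the 6 genes with the smallest p for the average change at 72 h, by line. Each point is 1 array, and lines join the means of 2 arrays at 0, 24 and 72 h of cisplatin. COX20 is lower at 72 h in HCC38 and MDA-MB-157 and overlaps between times in MDA-MB-231. The other 5 genes did not pass the threshold, and each vertical axis has its own span.

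By complex, the median change at 72 h was 0.05 for complex I subunits, -0.07 for complex I assembly, 0.01 for complex II subunits, -0.02 for complex II assembly and 0.02 for complex III subunits. It was 0.05 for complex IV subunits, -0.05 for complex IV assembly and 0.02 for ATP synthase. In complex I, 23 of 35 subunits had a change above 0 and 1 of 8 assembly genes did, without the share of all genes to set beside these counts. Some assembly genes lay near 0, such as NDUFAF5 at -0.01 and NDUFAF7 at -0.03. The other detected NDUFAF7 probes gave 0.05 and 0.17, so the count by sign depends on the choice of probe. The assembly genes ranged between -0.23 for NDUFAF1 and 0.08 for NDUFAF6, and 0 of the 8 were called. The listed alternative subunits of complex IV stayed small on average at 72 h: COX4I1 0.13, COX5A 0.04, COX6A1 0.07, COX6B1 0.05 and COX8A 0.12. In the subunit VII families, COX7A2 had 0.06, COX7A2L -0.15, COX7B -0.19 and COX7B2 0.04. SDHA, SDHC and SDHD had 0.04, 0.01 and -0.07, and ATP5IF1 had 0.20. Their adjusted p-values ran between 0.344 and 0.992.

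Within single lines the interval was wider, with a median of 0.40 to either side, and 1 line-level change was called, COX20 in HCC38. At 72 h BT549 had 0 genes called, beside 1.01% of all genes, and 12 (12.1%) at an unadjusted p under 0.05, beside 12.5%. Its smallest p belonged to ATP5F1E, the epsilon subunit of ATP synthase, with 10.58 and 10.68 at 72 h against 11.32 and 11.15 at 0 h. That change was -0.61 (adjusted p = 0.128), and it was called lower in the authors' table (adjusted p = 0.011). NDUFV1, the flavin-carrying core subunit of complex I, had 11.07 and 11.01 at 72 h in BT549, against 10.50 and 10.52 at 0 h, a change of 0.53 (adjusted p = 0.168). Under median scaling, which shifted all genes in BT549 by a median of -0.47, it was -0.19. COX7A1 had 8.71 and 8.50 at 72 h in BT549, against 8.28 and 7.97 at 0 h, a change of 0.48 (adjusted p = 0.195) that was -0.25 under the same scaling.

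HCC38 had 1 gene called at 72 h, beside 0.0810% of all genes, and 1 at an unadjusted p under 0.05, beside 10.3%. MDA-MB-157 had 0 called, beside 0.0810%, and 1 unadjusted, beside 6.88%. MDA-MB-231 had 0 called, beside 0.00675%, and 1 unadjusted, beside 9.35%. COX20 was the unadjusted gene in HCC38 and in MDA-MB-157. At 24 h no line had a gene called, beside 0.0270% of all genes in BT549 and 0 genes in the other lines. At an unadjusted p under 0.05 there were 3 in BT549, beside 5.54%, 1 in HCC38, beside 4.42%, 2 in MDA-MB-157, beside 4.25%, and 6 in MDA-MB-231, beside 8.57%. The largest 24 h difference was that of COX19, a copper-handling assembly factor, in MDA-MB-231, at -0.83 with arrays of 6.29 and 5.77 against 6.50 and 7.21 at 0 h (adjusted p = 0.514). ATP5F1B, the catalytic beta subunit, had 13.70 and 13.75 at 24 h in BT549, against 14.43 and 14.21 at 0 h, a change of -0.60 (adjusted p = 0.495). The F tests of whether the changes differed between lines called 0 of the 99 at 24 h, beside 0 genes in all, and 0 at 72 h, beside 0.0405%. At an unadjusted p under 0.05, COX20 and ATP5F1E passed that test at 72 h, or 2 of the 99, beside 9.53%.

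Other mitochondrial lists gave few calls at 72 h, beside the 1.21% of all genes called then. Of 37 further assembly factors and cytochrome c genes, 1 was called lower and 0 higher: TMEM70, which assists ATP synthase assembly, at -0.42 (SE 0.09, adjusted p = 0.032). Of 15 citric acid cycle genes, 1 was called lower and 0 higher: SUCLG2, a subunit of succinyl-CoA ligase, at -0.56 (SE 0.11, adjusted p = 0.023). SUCLG2 was below its 0 h mean in all 4 lines, with changes between -0.75 and -0.40. Neither gene was called under median scaling (adjusted p = 0.546 for both), in the authors' table (0.165 for TMEM70 and 0.109 for SUCLG2), within either slide, or without BT549, HCC38 or MDA-MB-157. Leaving out single arrays left TMEM70 at adjusted p of 0.019 to 0.095 and SUCLG2 at 0.012 to 0.081. Of 18 genes for mitochondrial biogenesis and 76 of the mitochondrial ribosome, 0 were called, with medians of 0.02 and 0.00. The coactivator gene PPARGC1A was detected on all 6 arrays of MDA-MB-157 and of MDA-MB-231 and on none of BT549 or HCC38. COXFA4, named NDUFA4 until it was reassigned to complex IV, had an average change of 0.01 (adjusted p = 0.974), and COXFA4L3 had 0.63 (SE 0.19, adjusted p = 0.116).

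Promoter windows were set beside these results, since many nuclear genes of the pathway are known targets of NRF1 and of GABP, a factor of the ETS family. RefSeq windows of GRCh38.p14, which run over 250 bases before and 50 after a start, were found for 84 of the 99 genes, 106 windows in all. The NRF1 motif, searched on both strands as GCGC, any base, then TGCGC, was in 21 of them (19.8%), beside 5.78% of all 35116 windows in the table and 7.39% of those of coding genes. With A as the free base it was in 8 (7.55%), beside 1.24% of all windows. The ETS core CCGGAAG, also on both strands, was in 31 (29.2%), beside 10.3% of all windows and 12.8% of those of coding genes. The motifs share no overlapping letters in the windows shown. These letters describe the windows and are not measured binding sites.

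Shown here are the windows of COX20, the gene that fell at 72 h, and of SDHD, brightest in HCC38 and with both motifs. COX7B and COX7B2 follow as a widely used subunit and its paralogue detected in 2 of the lines. Motif letters are in capitals. COX20 lies at chr1:244835056-244835355 on the plus strand, and 1 of its 3 windows held a motif. SDHD lies at chr11:112086623-112086922 on the plus strand, COX7B at chrX:77899218-77899517 on the plus strand and COX7B2 at chr4:46909196-46909495 on the minus strand. Each is read 5′ to 3′ along its gene.
COX20: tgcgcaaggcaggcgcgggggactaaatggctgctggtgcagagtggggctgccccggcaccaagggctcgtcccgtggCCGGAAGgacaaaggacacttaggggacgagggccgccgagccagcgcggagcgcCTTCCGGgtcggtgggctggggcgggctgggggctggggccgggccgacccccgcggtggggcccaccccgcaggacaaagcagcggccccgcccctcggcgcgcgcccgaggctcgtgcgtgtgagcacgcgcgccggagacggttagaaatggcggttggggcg
SDHD: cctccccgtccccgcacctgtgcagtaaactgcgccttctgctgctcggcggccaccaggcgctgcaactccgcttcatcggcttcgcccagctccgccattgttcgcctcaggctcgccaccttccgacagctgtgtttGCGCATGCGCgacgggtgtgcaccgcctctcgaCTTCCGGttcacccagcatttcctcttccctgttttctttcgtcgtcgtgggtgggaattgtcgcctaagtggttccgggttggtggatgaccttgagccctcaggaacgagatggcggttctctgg
COX7B: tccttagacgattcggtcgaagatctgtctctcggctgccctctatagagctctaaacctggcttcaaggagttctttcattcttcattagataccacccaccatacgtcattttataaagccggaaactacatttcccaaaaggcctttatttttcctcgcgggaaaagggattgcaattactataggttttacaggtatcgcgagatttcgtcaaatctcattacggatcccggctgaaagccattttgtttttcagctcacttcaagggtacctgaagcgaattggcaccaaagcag
COX7B2: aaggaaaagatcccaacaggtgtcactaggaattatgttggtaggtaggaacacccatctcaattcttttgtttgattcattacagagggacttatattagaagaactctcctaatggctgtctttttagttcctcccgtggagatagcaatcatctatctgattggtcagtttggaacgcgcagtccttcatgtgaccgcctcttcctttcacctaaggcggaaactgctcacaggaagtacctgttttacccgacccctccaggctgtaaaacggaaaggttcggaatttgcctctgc
The COX20 window held the ETS core at -171 and, on the opposite strand, at -116 relative to the start. The SDHD window held the NRF1 motif at -110 and the ETS core on the opposite strand at -77. Neither set of letters was in the COX7B or COX7B2 window. GC made up 75.3% of the COX20 window and 45.3% of that of COX7B2.

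Each gene was represented by its brightest probe, and 30 of the 99 had more than 1 detected probe. The 37 probe pairs had a median correlation of 0.65 over the 24 arrays. In 15 pairs the average change at 72 h had opposite signs, as for ATP5F1D (-0.19 and 0.23), NDUFA10 (0.12 and -0.28) and NDUFV3 (0.16 and -0.18). COX20 and NDUFB9 had no other detected probe.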

How the data were processed

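The authors deposited, per the file headers, a non-normalized intensity for each probe of single-colour Illumina bead arrays. The detection p-value beside each one is the authors' own, per the file headers. RNA extraction and biotin labelling used commercial kits, per the labels' protocols, and the summarising software is not given in the sources used here. The authors also deposited a log2 table with no stated method, whose identifiers did not correspond to its values. Its probes were matched to the intensities by value (47319 of 47322), and it served only as an alternative.

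Symbols were taken from the platform annotation through RefSeq (GRCh38.p14). Among 47322 probes, 1 symbol was found for 30112, several for 8 and none for 17202; only the 30112 were used. Normexp background correction (limma 3.58.1, R 4.3.3) used an offset of 16 and negative controls inferred from the detection p-values. Log2 values were then quantile-normalized. Each gene kept the detected probe (p under 0.05 on at least 2 arrays) with the highest mean. The model held a mean for each of the 12 groups, fitted by limma to all 24 arrays with 12 residual degrees of freedom. Each p-value set a difference of group means against the spread between the 2 arrays of a group, pooled over the 12 groups. How far the lines differed in their changes did not enter the p-value of an average over lines. The p-values were adjusted over 14807 genes.

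On simulated data of this layout the fit recovered 55.8% of genes changed by 0.5 log2 in the 72 h average and 100% of those changed by 1. In the test within BT549 they came to 1.30% and 51.6%.

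The genes, lists and tests were chosen with earlier results of these data known. Genes were named where they were called, had the widest range between lines, had the smallest p in a test with few calls, or were listed alternative subunits. Alternatives covered background correction, scaling, filter, choice of probe, slide, replicate number, array weights and leaving out each array.

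Replicate numbers were checked as pairs. Deviations of same-numbered arrays correlated at 0.38 to 0.50 in BT549 and at -0.05 to 0.22 in the other lines. With 2 replicates and no shared origin in the labels, the numbers were not taken as pairs, although those of BT549 moved together.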

Additional observations from a re-analysis of the deposited data

How the results depend on the processing

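The number of the 99 genes called between lines at 0 h was 72 and ran between 57 (median scaling) and 79 (no background correction), and between 66 and 74 when 1 array was left out. For the average at 72 h, where 1 gene was called, the count was 2 with no background correction and 2 with an offset of 50, NDUFS4 joining COX20. It was 0 with median scaling, 0 without line BT549, HCC38 or MDA-MB-157, and 0 within slide 1 or slide 2 alone, where 12 arrays remain. Over all genes, 352 and 338 were called in the first pair of settings, 0 under median scaling, 1 without BT549, 32 without HCC38, 38 without MDA-MB-157 and 0 within either slide, so most of these counts of 0 do not set the 99 apart. Leaving out single arrays gave 0 (without HCC38 72 h replicate 2) to 2 (without MDA-MB-231 0 h replicate 1, NDUFA2 joining COX20). In BT549 at 72 h the authors' table called 3 genes, ATP5F1E, ATP5F1D and COX17, in place of 0. In HCC38 at 72 h the count of 1 was 0 with median scaling and 0 with slide as a block, and leaving out single arrays gave 0 to 1, with 0 for 17 of the 24. In MDA-MB-231 leaving out 0 h replicate 1 gave 2 at 24 h, COX7B2 and ATP5MC3, and 2 at 72 h, ATP5MC3 and UQCR10. Leaving out any other array gave 0 there.

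Counts of a line against the other 3 at 0 h moved most with scaling. In BT549, 18 higher became 37 (median scaling) and 39 (authors' table), and 21 lower became 2 and 8. In HCC38, 22 higher became 10 and 24 lower became 7, both with median scaling. In MDA-MB-157, 36 higher became 6 and 22, and 9 lower became 14 in the authors' table. In MDA-MB-231, 8 higher became 1 with median scaling, 2 in the authors' table, 5 with the mean of probes and 3 with array weights. The 26 lower became 43 in the authors' table and 17 with array weights. Leaving out single arrays gave 10 to 21 higher and 11 to 24 lower in BT549, 14 to 23 and 15 to 26 in HCC38, 20 to 38 and 6 to 11 in MDA-MB-157, and 4 to 8 and 12 to 30 in MDA-MB-231. The lowest of these came from leaving out a 0 h array of the line itself. These comparisons and their alternatives were chosen after seeing the data. Of the values called in BT549, 12 of 39 changed sign under median scaling and 2 in the authors' table, NDUFAF7 among the 12. Of those called in MDA-MB-231, 2 of 34 and 1 did, and of those in HCC38 and MDA-MB-157, 0 did. None was called after its sign changed. No called change at 24 or 72 h changed sign under the alternatives run. The cause of the shifts was not tested.

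With the replicate number as a block within each line, 1 of the 99 genes was called at 72 h on average, again COX20, beside 504 genes in all in place of 179. In BT549 at 72 h the block called 382 genes in all in place of 149, and 0 of the 99 with or without it. The block changed no other count of these genes. Under median scaling the median change of all genes at 72 h became -0.47 in BT549, -0.22 in HCC38, 0.17 in MDA-MB-157 and 0.12 in MDA-MB-231. Relative to such shifts, the median of the 99 genes lay between -0.18 and 0.09 over both times. Within single lines, the interval of 27 to 47 of the 99 genes lay within 0.5 of no change, so smaller changes were often not detectable there with 2 arrays.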
